A study of Mus musculus with 4 samples.

Results

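The tissue kallikreins of Leydig cells are described here as 5 genes of the mouse Klk1 group, Klk1, Klk1b21, Klk1b22, Klk1b24 and Klk1b27, out of 32285 genes in the count tables. They were matched by gene symbol, and because they are close paralogs their unique molecular identifiers (UMIs, 1 per captured RNA molecule) were also added to a member sum. The members were chosen by their summed levels in the Leydig cells of these libraries, so the comparison of testicular organoids (TOs) with testes is a description and carries no test. Single cells were sequenced in 2 TO libraries and 2 testis libraries, all from ICR mice per the study's methods. The TOs had been rebuilt from dissociated neonatal testes, embedded in basement membrane extract and cultured with FSH and testosterone. They were 28 days old in the design text, which counts days in culture, whereas the dissociation protocol in the labels names an earlier day. The testes were taken from 28-day-old mice and were not treated. For testes the 28 days are age after birth, whereas TO cells had the age of the donor pups in addition. The conditions were therefore not matched in age. The number of animals per library is not stated, nor is which organoid batch went into which TO library, so the spread below is that between 2 libraries of a condition.

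Leydig cells lie between the seminiferous tubules and make testosterone and INSL3. Tissue kallikreins are secreted serine proteases that are made as inactive precursors. KLK1 is the true tissue kallikrein and releases kinins from kininogens, while the other members of the mouse group arose by gene duplication and cleave other substrates, such as growth factor precursors. In the mouse, Klk1b21, Klk1b24 and Klk1b27 are known from Leydig cells, and Klk1b22 encodes a protein that processes or binds growth factors.

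All 5 members lie on the plus strand of chromosome 7 within 177329 bp of the GRCm38 build (chr7:44052290-44229618), a span with 9 protein-coding genes and 13 pseudogenes. Klk1b27 comes first at chr7:44052290-44056712, followed by Klk1b21 at chr7:44102328-44106583, Klk1b22 at chr7:44112673-44116922, Klk1b24 at chr7:44188236-44192455 and Klk1 at chr7:44225360-44229618. Klk1 overlaps the predicted gene Gm10109 on the other strand. The coding sequences of the members were 84.3% to 93.6% identical, and the closest pair was Klk1b27 and Klk1b24. The last 90 coding bases, stop codon included, are shown because they let the paralogs be told apart. They come from GENCODE vM21 transcripts, and capitals mark the 28 positions at which the 5 members differ.
Klk1b27: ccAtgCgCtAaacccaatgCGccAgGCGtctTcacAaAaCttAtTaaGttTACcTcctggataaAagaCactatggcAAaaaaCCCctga
Klk1b21: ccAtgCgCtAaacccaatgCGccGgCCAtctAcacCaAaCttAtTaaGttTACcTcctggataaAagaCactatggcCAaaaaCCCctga
Klk1b24: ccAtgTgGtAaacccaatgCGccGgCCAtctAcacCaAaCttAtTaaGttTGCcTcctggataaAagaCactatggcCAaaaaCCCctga
Klk1b22: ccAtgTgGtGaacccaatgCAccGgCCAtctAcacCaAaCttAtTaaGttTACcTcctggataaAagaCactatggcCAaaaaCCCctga
Klk1: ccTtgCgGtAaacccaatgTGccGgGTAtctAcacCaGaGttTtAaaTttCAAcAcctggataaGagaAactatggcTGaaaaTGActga
These bases lie at chr7:44056577-44056666, chr7:44106445-44106534, chr7:44192317-44192406, chr7:44116787-44116876 and chr7:44229480-44229569, in the same order, all in the last coding exon. The 10x 3′ assay reads the end of a transcript, and within the last 500 bases 100% of the 90-base windows of Klk1b22 were found in no other gene of the group. This share was 94.2% for Klk1b27, 91.0% for Klk1b24 and 89.3% for Klk1b21, which share their other windows with one another, and 86.4% for Klk1, which shares windows with Klk1b5. The split of UMIs among Klk1b21, Klk1b24 and Klk1b27 is therefore less certain than their sum.

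The promoters of the 3 abundant members are shown with that of Klk1b9, a gene of the group that was measured in spermatids and hardly in Leydig cells. Each is the 250 bases before the RefSeq gene start (GRCm38.p6, plus strand), and capitals mark the longest run of bases shared by Klk1b27, Klk1b21 and Klk1b24, which is 89 bases long.
Klk1b27: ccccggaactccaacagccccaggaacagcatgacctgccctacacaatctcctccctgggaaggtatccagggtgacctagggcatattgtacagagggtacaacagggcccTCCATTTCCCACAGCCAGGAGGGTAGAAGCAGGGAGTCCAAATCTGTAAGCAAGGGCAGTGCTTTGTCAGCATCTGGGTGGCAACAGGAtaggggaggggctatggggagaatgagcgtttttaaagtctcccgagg
Klk1b21: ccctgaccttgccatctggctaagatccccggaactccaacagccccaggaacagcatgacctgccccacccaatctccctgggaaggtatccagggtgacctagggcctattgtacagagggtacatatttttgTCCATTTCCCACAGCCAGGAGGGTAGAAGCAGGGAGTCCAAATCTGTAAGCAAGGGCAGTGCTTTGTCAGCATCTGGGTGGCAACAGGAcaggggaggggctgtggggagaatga
Klk1b24: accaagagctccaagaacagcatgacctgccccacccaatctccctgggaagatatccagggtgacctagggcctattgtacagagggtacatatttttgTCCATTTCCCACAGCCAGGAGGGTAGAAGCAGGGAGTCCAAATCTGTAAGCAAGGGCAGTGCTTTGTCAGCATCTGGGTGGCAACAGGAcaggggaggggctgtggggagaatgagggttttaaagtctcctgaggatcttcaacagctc
Klk1b9: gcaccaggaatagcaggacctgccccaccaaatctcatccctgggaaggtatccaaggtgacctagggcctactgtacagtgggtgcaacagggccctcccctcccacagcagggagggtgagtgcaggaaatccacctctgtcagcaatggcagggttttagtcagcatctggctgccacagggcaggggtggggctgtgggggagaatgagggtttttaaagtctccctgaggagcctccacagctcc
The windows are chr7:44052040-44052289, chr7:44102042-44102291, chr7:44187986-44188235 and chr7:43975811-43976060. The run was present in none of the other 11 promoters of the group, where the best placement without gaps left 13 mismatches (Klk1b11) to 57 mismatches (Klk1). These counts also depend on gaps and on where a window ends. The run was defined from 3 genes picked by their level, which are also close paralogs, so its absence elsewhere is no test. Whether it has a part in Leydig cell expression was not tested. Over 173 aligned columns the Klk1 window was 80.9% identical to that of Klk1b27. Over their best local alignments, Klk1b21 and Klk1b24 were 98.1% identical, Klk1b27 and Klk1b21 93.0%, and Klk1b27 and Klk1b9 83.6%. Both strands were searched for short motifs, of which 3 are given. AAGGTCA, the type bound by NR5A1, was found in 2 of 5 members, at -247 in Klk1b21 and at -206 in Klk1, both on the minus strand, and in 4.08% of 32851 promoters. TGACG and TATAAA were not present in the 5 windows and were present in 17.8% and 12.4% of all promoters. These matches describe letters and not binding.

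The filters kept 9802 and 8713 cells in the TO libraries and 9867 and 9516 in the testis libraries. Clusters were formed without any Klk gene, and 3 of 36 were named Leydig from Cyp11a1, Cyp17a1, Insl3, Hsd3b1 and Star. They held 1705 and 1559 TO cells with 18266745 and 18726959 UMIs, and 568 and 341 testis cells with 3598692 and 3394127 UMIs. All 5 markers had UMIs in each library. Their summed level was 9028 and 3463 CPM (UMIs of a gene per 1000000 UMIs of the sum) in TOs and 12146 and 17321 CPM in testes. The same markers named the clusters, so their presence is no check of the Leydig label, which was weakest in TO replicate 2. Most of the sum there was Hsd3b1 (1905 CPM) and Cyp11a1 (1315 CPM). Insl3 was at 150 CPM, Cyp17a1 at 81.7 CPM and Star at 10.8 CPM. Of 7 spermatid markers, 7 were detected in the Leydig sums of both testes at 1212 and 1379 CPM in all, against 4 and 7 markers at 0.712 and 2.67 CPM in TOs (Tnp1, Prm1 and Sun5 were at 0 in TO replicate 1). Pairs of libraries shared 30 to 55 cell barcodes.

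The member sum in Leydig cells was 2012 CPM in TO replicate 1 and 314 CPM in TO replicate 2. In the testes it was 158 CPM in replicate 1 and 1491 CPM in replicate 2. Each condition thus held a high and a low library, and the conditions overlapped. The sum differed 6.40-fold between the TO libraries and 9.45-fold between the testis libraries. On the log2(CPM + 1) scale, TOs averaged 9.64 ± 1.89 and testes 8.93 ± 2.29 (SD, n = 2 libraries each), a difference of 0.71 that was smaller than either SD. The direction rested on single libraries, since the difference was -0.63 without TO replicate 1 and -0.91 without testis replicate 1. These levels rested on 36747, 5886, 568 and 5062 UMIs, and the exact 95% Poisson interval of the lowest, testis replicate 1, was 145 to 171 CPM. Such intervals cover counting error only. Counting error was therefore far smaller than the difference between libraries of a condition.

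Klk1b27 was the most abundant member in the high libraries. It was measured at 830 CPM in TO replicate 1, 83.7 CPM in TO replicate 2, 44.7 CPM in testis replicate 1 and 593 CPM in testis replicate 2. It also differed more between libraries of a condition than Klk1b21 or Klk1b24 did, 9.91-fold in TOs and 13.3-fold in testes.

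Klk1b24 was measured at 592 and 106 CPM in TOs and 56.7 and 377 CPM in testes. Klk1b21 was measured at 542 and 114 CPM in TOs and 51.1 and 441 CPM in testes. In the low libraries these genes and Klk1b27 were close together, and in TO replicate 2 the counting intervals of Klk1b24 (101 to 110 CPM) and Klk1b21 (109 to 119 CPM) overlapped, as did those of all 3 genes in testis replicate 1.

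Klk1, the kinin-releasing enzyme, was measured at 35.5 and 8.28 CPM in TOs and 4.17 and 44.8 CPM in testes. Klk1b22 was the lowest member, at 13.5 and 2.40 CPM in TOs and 1.11 and 35.6 CPM in testes, the low testis value resting on 4 UMIs. Both were highest in testis replicate 2, unlike Klk1b21, Klk1b24 and Klk1b27, which were highest in TO replicate 1. Conditions overlapped for each of the 5 members, and the difference of the log2 means ran from -0.33 for Klk1b22 to 0.77 for Klk1b24, each below the pooled SD between libraries (1.84 to 2.48).

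**Figure D1:**
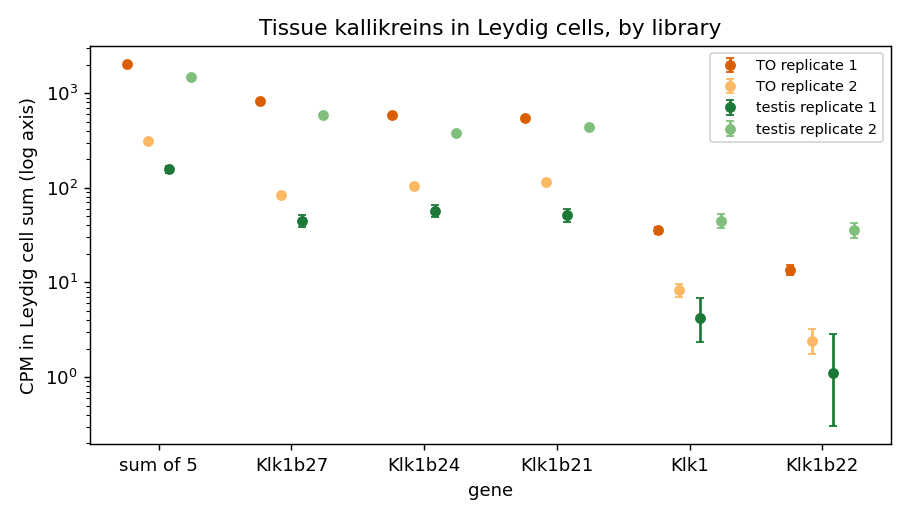
Level in Leydig cells of the member sum and of each member (CPM, log axis), 1 point per library, with exact 95% Poisson intervals as bars. TO replicate 1 and testis replicate 2 lie above TO replicate 2 and testis replicate 1 for each gene, with sums of 2012 and 1491 against 314 and 158 CPM.

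The make-up of the sum differed between the high and the low libraries. Klk1b27 gave 41.2% and 39.7% of member UMIs in TO replicate 1 and testis replicate 2, and 26.6% and 28.3% in the 2 libraries with low sums. Klk1b21 gave 26.9% and 36.4% in TOs and 32.4% and 29.6% in testes, and Klk1b24 gave 29.4%, 33.6%, 35.9% and 25.3%. Klk1 gave 1.77% to 3.00%. Klk1b22 gave 0.669% to 0.765% in 3 libraries and 2.39% in testis replicate 2.

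Most member UMIs of the kept cells lay in Leydig cells, with 94.7% and 95.7% in TOs and 89.0% and 84.5% in testes. The sum over all other cells was 44.1 and 4.92 CPM in TOs and 1.69 and 21.4 CPM in testes, or 1.07% to 2.19% of the Leydig level. In TO replicate 1 the next cell type was the cluster group named spermatid, at 72.8 CPM (86 UMIs). That name is weak in TOs, where its own markers summed to 69.4 and 245 CPM, against 8426 and 41481 CPM in the testes. In TO replicate 2 the next was the group named endothelial at 24.3 CPM, from 17 UMIs. That name is also weak in TOs, where the endothelial markers summed to 238 and 117 CPM in these cells, against 1728 and 1247 CPM in the testes. In testis replicate 1 no other type was above 3.38 CPM, and endothelial cells had 0 UMIs, which allows up to 4.57 CPM. In TO replicate 1 the other cells held the members in proportions near those of Leydig cells. Klk1b27 gave 38.4% against 41.2% in Leydig cells, and Klk1 1.40% against 1.77%. In TO replicate 2 the proportions differed more, with Klk1b21 at 45.0% against 36.4%, Klk1b27 at 19.8% against 26.6% and Klk1 at 1.53% against 2.63%. Whether these UMIs came from free RNA was not tested.

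**Figure D2:**
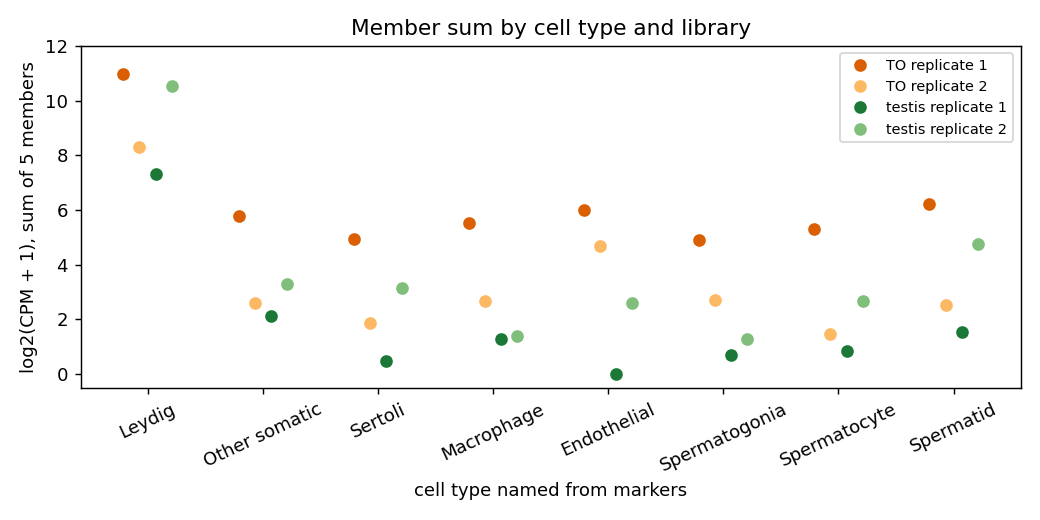
Member sum as log2(CPM + 1) in each cell type named from markers, 1 point per library. Leydig cells are highest in all 4 libraries, and TO replicate 1, with the highest Leydig level, is also highest in each of the other types.

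In the other cells of the testes Klk1 stood apart, giving 57.1% and 84.2% of member UMIs. Most of them were in spermatids, with 35 Klk1 UMIs in replicate 1 (1.23 CPM) and 768 in replicate 2 (22.7 CPM). Cluster 3, led by the protamine gene Prm2, held 709 of these in testis replicate 2, at 44.2 CPM, which was close to the 44.8 CPM of Leydig cells in that library. In testis replicate 1 its cells had 1 Klk1 UMI (0.586 CPM) and less Prm1, 6091 against 55325 CPM. Cluster 3 held 889 and 2407 cells, or 9.01% and 25.3% of the cells kept. Cluster 26, another spermatid cluster, had Klk1 at 13.5 CPM in replicate 1 (25 UMIs) and 9.07 CPM in replicate 2 (6 UMIs). Klk1b21, Klk1b22, Klk1b24 and Klk1b27 were each at or below 1.25 CPM in cluster 3 of testis replicate 2. Over all spermatids of that library Klk1b27 was at 1.36 CPM, against 0 to 2.68 CPM in its other cell types apart from Leydig cells. Klk1 was thus measured in both Leydig cells and spermatids, unlike Klk1b27. Klk1 shares some end windows with Klk1b5, which was at 7.07 CPM in testis spermatids, and the part of Klk1b5 reads in the Klk1 values was not tested.

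The 9 other protein-coding genes of the group in the tables fell on different sides. In cluster 3 of testis replicate 2, Klk1b8 was at 361 CPM, Klk1b9, which encodes an epidermal growth factor-binding protein, at 194 CPM and Klk1b26 at 170 CPM. Klk1b3 was at 68.7 CPM, Klk1b5 at 24.1 CPM and Klk1b4 at 11.04 CPM. In cluster 26 of testis replicate 1, Klk1b8, Klk1b26 and Klk1b9 were again the highest, at 235, 115 and 70.4 CPM. In the Leydig sums Klk1b8 was at 7.88 and 0.374 CPM in TOs and 3.33 and 14.7 CPM in testes, where spermatid markers were also found, and the part of these in the testis values was not tested. Klk1b1 was at 51.9 CPM in Leydig cells of TO replicate 1 (948 UMIs) and at 0.641 CPM in TO replicate 2. In the testes it was at 0 UMIs, which allows up to 0.834 CPM, and at 3.83 CPM. Klk1b11 had 10 UMIs over all barcodes. The clusters and genes of this paragraph were picked after their values had been seen.

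**Figure D3:**
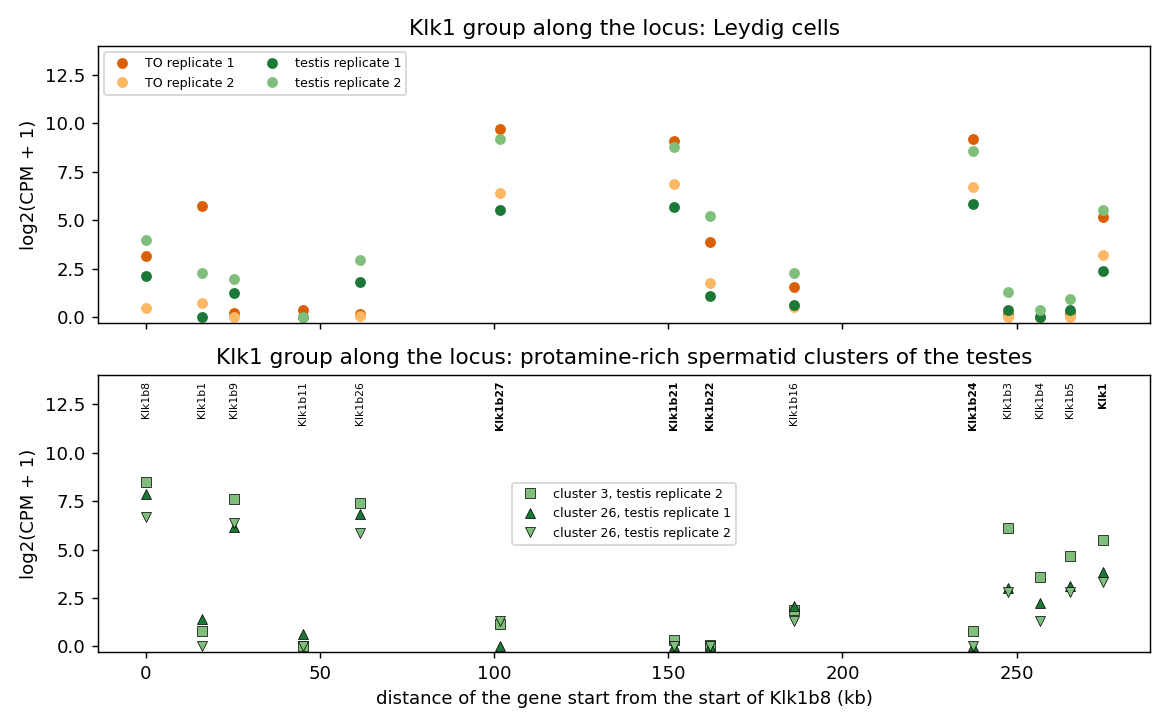
Genes of the Klk1 group by distance of the gene start from that of Klk1b8 (kb), with log2(CPM + 1) in Leydig cells of the 4 libraries (top) and in protamine-rich spermatid clusters of the testes (bottom), members in bold. Klk1b27, Klk1b21 and Klk1b24 are high in Leydig cells and near 0 in spermatids, Klk1b8, Klk1b9 and Klk1b26 are high in spermatids, and Klk1 is measured in both.

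Within Leydig cells the members differed between clusters. Cluster 2, with 3459 cells and led by Cyp17a1, Hsd3b6 and Insl3, had member sums of 2257 and 385 CPM in TOs and 164 and 1514 CPM in testes. Cluster 15, with 620 cells and led by Eya1, Adh1 and Klhl14, had sums of 52.8 and 11.4 CPM in TOs and 52.1 and 918 CPM in testes. The testis values of cluster 15 rested on 42 and 19 cells, with 11 and 117 member UMIs. In TOs, where the cluster held 257 and 302 cells, Insl3 was also lower in it, at 81.5 and 4.84 CPM against 2540 and 182 CPM in cluster 2. Unlike the Klk genes, Insl3 was not left out of the clustering and was used in naming, so its difference between clusters is no test. Cluster 33, with 94 TO cells and led by Sult1e1, Klk1b27 and Fabp7, had 3737 and 353 CPM. A member was among the leading genes of clusters 2 and 33 although no Klk gene was used in the clustering, and the leading genes of a cluster are no test.

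**Figure D4:**
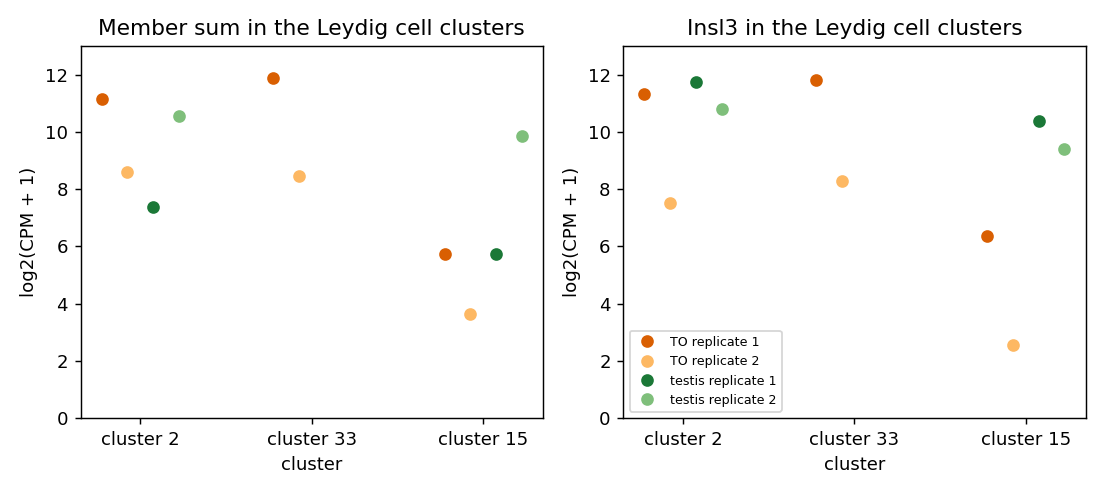
Member sum (left) and Insl3 (right) as log2(CPM + 1) in the 3 Leydig cell clusters, 1 point per library; cluster 33 holds TO cells. In TOs both are lower in cluster 15 than in cluster 2, with sums of 52.8 and 11.4 against 2257 and 385 CPM.

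The sum was also unevenly spread over cells. A member UMI was found in 71.6% and 54.0% of TO Leydig cells and in 43.7% and 92.4% of testis Leydig cells, at median depths of 10731, 12399, 6177 and 9820 UMIs. With cells thinned to 3000 UMIs, which left out 11 to 50 shallower cells per library, the shares were 55.6% (exact binomial 95% interval 53.2 to 58.1) and 34.5% (32.1 to 36.9) in TOs. In testes they were 29.8% (26.03 to 33.8) and 84.4% (79.9 to 88.1). In Sertoli cells, taken as the background, the thinned shares were 8.15% and 0.982% in TOs and 0.303% and 2.38% in testes, at median depths of 10071, 11340, 6102 and 8990 UMIs. The Sertoli shares of testes rested on 1 and 3 cells. In the group named other somatic the thinned shares were 12.2% and 1.43% in TOs and 1.22% and 2.07% in testes. Leydig cells were above both groups in each library, which is no test, since the members were chosen by their Leydig levels.

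In TO replicate 1 the 171 of 1705 cells with the most member UMIs held 67.6% of them, and 1 cell had 655 member UMIs. The same share of cells held 62.6% in TO replicate 2 (156 cells), 51.8% in testis replicate 1 (57 cells) and 33.9% in testis replicate 2 (35 cells). The median cell of testis replicate 2 had a level of 1121 CPM, against 278 CPM in TO replicate 1, although the summed level was higher in the latter. Testis replicate 2 thus had members in most of its Leydig cells, and TO replicate 1 had them concentrated in a smaller share. In cluster 2 of testis replicate 2, 96.9% of cells with a Klk1b21 UMI also had a UMI of another member, against 67.2% of those without, and in TO replicate 1 these shares were 89.8% and 44.6%. Cells of higher depth have more of every gene, and the part of depth in this was not tested.

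The Leydig cell genes described next did not have the members' order of libraries. Insl3 was at 2261 and 150 CPM in TOs and 3336 and 1734 CPM in testes, so testis replicate 1 had the most Insl3 and the lowest member sum. Cyp17a1, an androgen-synthesis enzyme, was at 1162 and 81.7 CPM in TOs and 3808 and 11058 CPM in testes. Star, which brings cholesterol into mitochondria, was at 37.8 and 10.8 CPM against 399 and 719 CPM. Hsd3b6 was at 23.4 and 75.03 CPM against 636 and 874 CPM, while Hsd3b1, its paralog, was at 2875 and 1905 CPM against 1484 and 996 CPM. Both TO libraries lay below both testis libraries for Cyp17a1, Star and Hsd3b6 and above them for Hsd3b1. With 2 libraries a condition such a separation is weak, and its share over all genes was not counted. Cyp17a1, Star and Hsd3b1 were also used to name the Leydig clusters. Lhcgr, the receptor of luteinizing hormone, was at 336 and 268 CPM in TOs and 719 and 617 CPM in testes.

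Over 32 sums of 1 library and 1 cell type, the genes most like the member sum were Hsd3b1 (Pearson r = 0.872), Sult1e1 (0.870), Asgr1 (0.865), Cyp11a1 (0.862), Hao2 (0.859), Fabp3 (0.849), Oxtr (0.845) and Insl3 (0.841), among 10939 genes. These sums share libraries and depth, and the correlations describe mostly which genes Leydig cells express. Hsd3b1, Cyp11a1 and Insl3 were also used to name the Leydig clusters, and the members were chosen by their Leydig levels. Their likeness is therefore no test. Of the 8, Sult1e1, the estrogen sulfotransferase, had its levels in Leydig cells in the same order of libraries as the member sum. It was at 1426 and 119 CPM in TOs and 7.22 and 519 CPM in testes. Klk1b1, outside the 8, had that order too. Hao2, Fabp3 and Oxtr also had TO replicate 1 and testis replicate 2 above the other libraries, though in another order. The 8 were picked for likeness to the member sum, and the share of all genes with its order was not counted.

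**Figure D5:**
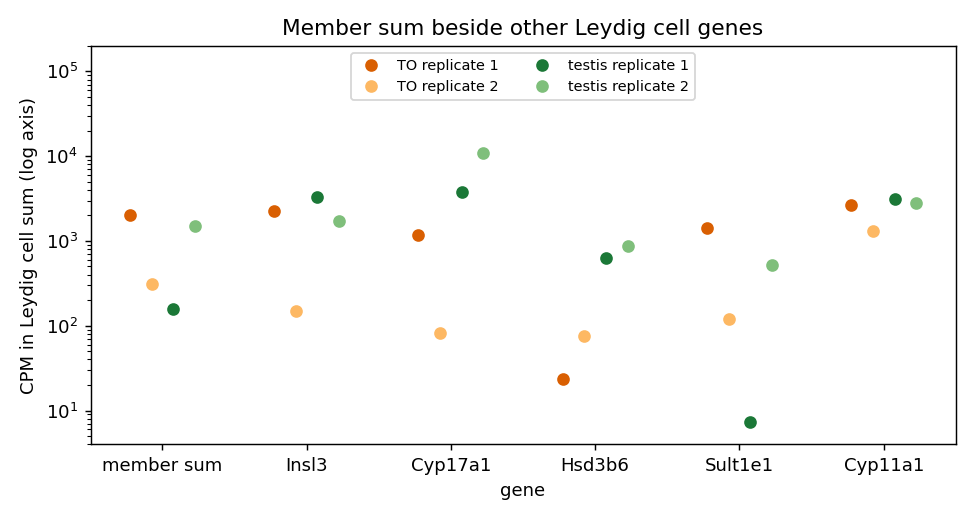
Member sum and 5 other Leydig cell genes in Leydig cells (CPM, log axis), 1 point per library. Sult1e1 has the same order of libraries as the member sum, whereas Insl3 is highest in testis replicate 1 (3336 CPM), where the member sum is lowest (158 CPM).

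Genes of the kallikrein and kinin pathway that are not members were read from a fit of all genes (edgeR quasi-likelihood test), in which a call needed a Benjamini-Hochberg adjusted p under 0.01 together with a log2 fold change beyond 1 in size. In Leydig cells, 120 of 12205 genes were called between TOs and testes (0.983%), 34 higher (0.279%) and 86 lower (0.705%) in TOs, and the median log2 fold change was 0.02. Of 43 genes in 5 lists, 12 passed the filters and 0 were called, with 5 of the 12 at an unadjusted p below 0.05, against 27.8% of all genes tested. DESeq2 called 3 of the 12, Igfbp3 and Mme higher and Ren1 lower in TOs, against 9.13% of all genes. The other Klk1b genes had 2 of 9 tested with a median log2 fold change of 1.32, the kinin system 3 of 11 with -1.02, the inhibitors 4 of 5 with 0.93 and the substrates or partners 3 of 5 with 0.44. Except for the inhibitors, these medians join genes of opposite sign and give no direction of a list. Klk1b1 was at 3.67 (SE 2.02), from 948 UMIs in TO replicate 1 and 12 in TO replicate 2, and Klk1b16 at -1.02 (SE 1.03). In the kinin system Mme was at 3.04, Ece1 at -1.02 and Xpnpep2 at -1.67. None of the 13 other kallikrein-related peptidases, Klk4 to Klk15 and the plasma kallikrein Klkb1, was tested, since each had at most 3 UMIs in any Leydig sum.

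The kininogen genes Kng1 and Kng2, the sources of kinins, had 0 UMIs in all 4 Leydig sums, and the kinin receptor genes Bdkrb1 and Bdkrb2 had at most 2 UMIs. A count of 0 allows up to 0.1602 to 0.884 CPM, so low levels could not be detected at this depth. Of the peptidases that break down kinins, Mme (neprilysin) was at 49.7 and 45.0 CPM in TOs and 1.95 and 8.54 CPM in testes (log2 fold change 3.04, SE 0.54, adjusted p = 0.0252 by edgeR). Ece1 was at 67.9 and 53.9 CPM against 87.5 and 136 CPM (log2 fold change -1.02, SE 0.27, adjusted p = 0.0721 by edgeR). For both genes the TO and testis libraries did not overlap, but the share of all genes that separate so was not counted, and neither passed the threshold. In the group named endothelial, Mme was at 1164 CPM in TOs and 0 in testes, and Ece1 at 326 and 252 CPM. Mme was also at 57.7 CPM in testis Sertoli cells. The part of other cells in the Leydig values was not tested. Ace, the angiotensin-converting enzyme, which also breaks down kinins, was at 2.14 and 1.76 CPM in TO Leydig cells against 20.3 and 10.6 CPM in those of testes. It was left out of the fit because other cells held more of it, 168 CPM in testis spermatids, and the part of these in its testis values was not tested. With no gene left out for other cells it was called lower in TOs by edgeR (log2 fold change -3.05, SE 0.46, adjusted p = 0.00317).

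Among inhibitors of serine proteases, Serpina5 was at 304 and 182 CPM in TOs and 157 and 48.3 CPM in testes, and Serping1 at 375 and 146 against 101 and 53.3 CPM. Serpina3c was at 114 and 40.0 against 51.1 and 30.1 CPM, and Spint2 at 164 and 144 against 32.2 and 131 CPM. By edgeR the adjusted p was 0.266 for Serpina5, 0.120 for Serping1, 0.383 for Serpina3c and 0.409 for Spint2, and none passed the threshold. Serping1 was higher in the group named other somatic, at 1560 CPM in TOs and 847 CPM in testes. Spint2 was higher in Sertoli cells, at 560 and 376 CPM. Serpina5 was higher in Sertoli cells of testes (302 CPM) but not of TOs (154 CPM), and Serpina3c was highest in Leydig cells. The part of other cells in these Leydig values was not tested.

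Ren1 encodes renin, whose precursor is cleaved by a kallikrein of this group. It was at 0.274 and 0.267 CPM in TOs, from 5 UMIs each, and at 228 and 35.1 CPM in testes (log2 fold change -9.04, SE 1.16, adjusted p = 0.0123 by edgeR). Igfbp3, an insulin-like growth factor carrier, was at 10.5 and 17.3 CPM in TOs and 0.278 and 1.18 CPM in testes (log2 fold change 4.10, SE 0.62, adjusted p = 0.0172 by edgeR). Sertoli cells held more Igfbp3, 221 CPM in TOs and 7.22 CPM in testes. Sertoli markers summed to 290 and 184 CPM in the Leydig sums of TOs and 240 and 321 CPM in those of testes, and the part of Sertoli RNA in the Igfbp3 values was not tested. Ren1 and Igfbp3 missed the threshold in this fit, and Ren1 passed it with a filter on low counts left out. Egf, epidermal growth factor, was at 1.18 to 2.30 CPM.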

How the data were processed

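Cells of 2 TO and 2 testis libraries were profiled with the 10x Genomics 3′ v3.1 kit. The authors counted UMIs with Cell Ranger 7.1.0 on mm10, per the labels, and the deposited values are raw counts per gene and barcode. Scrublet in scanpy 1.11.5 removed doublets at an expected 0.8% per 1000 barcodes, in place of the DoubletFinder the paper names. Barcodes had to hold 1000 to 5000 genes, no more than 20000 UMIs and a mitochondrial share of up to 10%. Without Klk genes, 2000 variable genes and 30 principal components were joined with a rewritten Harmony and clustered with leidenalg 0.10.2 (20 neighbours, resolution 1). Clusters were named from markers, so a difference from the study may come from rebuilt names. UMIs were summed per library and type and given as CPM, without length scaling, since a 3′ UMI is 1 tag per molecule. Sums were fitted in edgeR 4.0.16 (quasi-likelihood, TMM, filterByExpr), leaving out genes at least 5 times higher in other cells. DESeq2 1.42.0 was an alternative. Leydig sums held 3394127 to 18726959 UMIs. Of 32285 gene IDs, 32158 were in GENCODE vM21. The fit was tested on simulated data in which 200 genes were changed by a log2 fold of 2 at a dispersion of 0.1. There edgeR recovered 27% of them with 0 false calls, and DESeq2 40% with 3 false calls. A gene that was not called may therefore still differ.

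Libraries were grouped by their titles. All 5 members and the lists of pathway genes were chosen with earlier results of these data known. Named pathway genes were those called or up to 6 of a list by level, together with those past the threshold under an alternative and those at 0. The 8 genes most like the member sum were taken by Pearson correlation of log2(CPM + 1), among genes with at least 50 CPM in 1 sum of at least 20 cells. The use of Leydig cells of cluster 2 alone was chosen after seeing the data. Protein sequences were not used here, and some listed genes and a motif are not reported here.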

Additional observations from a re-analysis of the deposited data

Results flagged for a closer look

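The member UMIs outside the cells kept were a larger share in TOs than in testes. The barcodes that the filters removed held 42.9% of the member UMIs of TO replicate 1 and 54.1% of those of TO replicate 2, against 18.5% in each testis library. In TOs most of these lay in barcodes over the upper limits of genes or UMIs, which held 31.6% and 45.9% of member UMIs, against 5.75% and 7.18% in testes. In the testes, barcodes removed as doublets held more, 11.6% and 7.82%. With the upper limits lifted, the member sum in Leydig cells was 2300 and 381 CPM in TOs and 157 and 1472 CPM in testes.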

How the results depend on the processing

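The TO minus testis difference of the member sum was 0.71 on the log2 scale, and the pooled SD between libraries was 2.10. With 1 library left out it cannot move by more than that SD, and a replicate block cannot move it at all. Those of the 13 alternatives are therefore no check. Under the others it ran from 0.56 with TMM-scaled library sizes to 0.96 without upper limits. That of each member moved by less than its own pooled SD under them. That of the sum ranged from -0.91 to 2.33 with 1 library left out. It was negative without TO replicate 1 or testis replicate 1. The number of called genes in Leydig cells (120) also changed with the processing. It was 183 with DESeq2 size factors in edgeR, 1114 with the DESeq2 Wald test, 252 without the filter on low counts, 2192 with no gene left out for other cells, 251 with cells assigned by their own markers, 10 without upper limits, 814 without doublet removal and 45 in cluster 2 alone. It was 0 by edgeR with genes left out from 2 times, with 2125 genes at an unadjusted p below 0.05. With 1 library left out it ranged from 97 to 304, and was 238 without TO replicate 1 and 304 without testis replicate 2. Of the pathway genes (0 called), 3 were called with the DESeq2 Wald test, 1 without the filter on low counts, 5 with no gene left out for other cells, 1 with cells assigned by their own markers, 3 without doublet removal and 0 to 2 with 1 library left out. These were Igfbp3 and Ren1 without TO replicate 1, Ren1 without testis replicate 1, and Mme and Ren1 without testis replicate 2. The cause of these changes was not tested. Replicate numbers are shared by TOs and testes only as labels, and deviations of same-numbered libraries had a correlation of 0.036. With the replicate block, 148 genes and 1 pathway gene (Ren1) were called. The member difference of 0.71 cannot change with a block, since each replicate number holds 1 library of each condition. With 2 libraries a condition, depth is not the main limit of the member values, whereas genes at 0 to 3 UMIs cannot be compared.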
